A study of Mus musculus with 18 samples.

Results

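The inhibitory receptors of the B cell surface and a phosphatase that such receptors recruit were followed as 8 genes, *Cd22*, *Siglecg*, *Cd72*, *Fcgr2b*, *Pirb*, *Lair1*, *Cd5* and *Ptpn6*, chosen by name from the 16545 genes of the expression table. All 8 were listed in the table, and each was above 0 FPKM in every library. The libraries came from B cells purified out of the spleens of 3 control mice (CON) and 3 mice with a B cell-specific deletion of *Zbtb24* (B-CKO) before (D0) and after 24 h (D1) and 48 h (D2) of culture with LPS, the bacterial ligand of TLR4, which gave 6 groups of 3 libraries. B-CKO mice carried 2 loxp alleles of *Zbtb24* around exon 2 and a Cre allele expressed in B cells, and by the methods of the study their littermate controls carried the same Cre allele with wild-type *Zbtb24*, all on a C57BL/6 background. Whether both genotypes had the same number of Cre alleles is not settled by the expression values, so that every genotype comparison here may hold a difference in the Cre allele besides that in *Zbtb24*. The sources used here give no age or sex for the sequenced mice, and deletion happened only in cells that had made Cre.

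Inhibitory receptors carry an immunoreceptor tyrosine-based inhibitory motif (ITIM) in their cytoplasmic part. When the receptor is brought close to an engaged B cell receptor (BCR), the kinase Lyn phosphorylates the tyrosine of the ITIM, which then binds the tyrosine phosphatase SHP-1 (encoded by *Ptpn6*) or the lipid phosphatase SHIP-1 (*Inpp5d*). These enzymes undo the phosphorylation on which BCR signalling runs and so set the threshold of B cell activation.

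The sequence compared between these receptors is the pattern of the ITIM. It was searched in the coding sequence of the principal GENCODE vM21 transcript of each gene (build GRCm38) as isoleucine, valine, leucine or serine, any residue, tyrosine, any 2 residues, and isoleucine, valine or leucine, on the cytoplasmic side of the most hydrophobic stretch. *Cd22* held 4 such motifs, *Siglecg* and *Pirb* 3 each, *Cd72* and *Lair1* 2 each, and *Fcgr2b* and *Cd5* 1 each. The codons of 1 motif per receptor are shown 5′ to 3′ on the coding strand with the tyrosine codon in capitals, for *Siglecg* of 2 motifs. They are matches to a letter pattern, and phosphorylation or phosphatase binding at these tyrosines was not tested.
Cd22, tyrosine 863, exon 14, chr7:30866540-30866557, minus strand: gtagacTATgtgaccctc
Siglecg, tyrosine 659, exon 12, chr7:43417979-43417996, plus strand: ctccacTATgctgctctc
Siglecg, tyrosine 682, exon 12, chr7:43418048-43418065, plus strand: tctgatTACacagaggtc
Cd72, tyrosine 7, exon 1, chr4:43454498-43454515, minus strand: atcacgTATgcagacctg
Fcgr2b, tyrosine 319, exon 8, chr1:170961071-170961088, minus strand: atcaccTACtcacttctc
Pirb, tyrosine 824, exon 15, chr7:3712696-3712713, minus strand: agtgtaTATgctactctg
Lair1, tyrosine 257, exon 8, chr7:4009703-4009720, minus strand: agcacaTATgcagccatc
Cd5, tyrosine 464, from exon 9 across an intron, chr19:10719622-10720230, minus strand: tctgctTATccagctctg
The motif lies near the first residue of the chain in *Cd72*, whose cytoplasmic part is its N-terminus, and towards the C-terminus in the other 6 receptors.

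Levels are FPKM, fragment numbers scaled to transcript length and library size, so that they can be compared between genes. Differences are log2 fold changes of FPKM + 1 with their standard error (SE) from limma. Here rose, fell and passed mean an adjusted p under 0.05 over all genes tested (Benjamini-Hochberg). The D0 libraries differed more among themselves than the others did. The median SD of a gene over 3 libraries on the log2 scale was 0.169 in CON and 0.158 in B-CKO at D0, against 0.0545 to 0.0852 in the D1 and D2 groups. At D0, CON and B-CKO libraries of the same number deviated together (correlation 0.468 to 0.854). FPKM carry no depth, and steps between low values fitted whole reads for only 137 of 1336 low genes (10.3%), so the depth of each library is unknown. *Zbtb24* itself averaged 45.4 FPKM in CON at D0, 17.6 at D1 and 15.2 at D2, and in B-CKO 12.5, 10.9 and 10.4, without overlap at any time. Reads outside exon 2 count towards the latter values. The B cell markers *Ms4a1* and *Cd79a* were at 432 to 632 FPKM and 642 to 2270.4 FPKM in the 18 libraries.

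At D0, transcripts of *Cd22*, *Ptpn6*, *Cd72* and *Siglecg* were the most abundant of the 8 genes, and the order had changed by D1. All D1 and D2 libraries came from cultures with LPS, so LPS and culture alone cannot be told apart. In CON, 6 of the 8 genes fell from D0 to D1, *Fcgr2b* alone rose, and *Ptpn6* did not pass, against 30.7% lower and 26.7% higher among 15531 genes tested. The median log2 fold change of the 8 genes was -0.84, beside -0.02 over all genes. In B-CKO, 5 fell and *Fcgr2b* rose, against 32.3% lower and 27.5% higher of 15551 genes. These bulk values cannot tell fewer cells of a type from less RNA of a gene per cell. FPKM are shares of the RNA of a library, so a fall may also be a smaller share of more total RNA. These values do not hold the amount of RNA per cell.

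*Cd22* encodes a sialic acid-binding lectin (Siglec-2) that sits near the BCR and recruits SHP-1. The locus is chr7:30865404-30880342 (build GRCm38.p6, minus strand). In CON it was at 462, 423 and 412 FPKM at D0, at 221, 192 and 207 at D1, and at 223, 235 and 233 at D2. In B-CKO it was at 458, 386 and 423 at D0, at 173, 163 and 170 at D1, and at 201, 224 and 209 at D2. Every D0 library was thus above every LPS library of its genotype. The fall from D0 to D1 was 1.06 on the log2 scale in CON (-1.06 ± 0.07 SE, adjusted p = 6.1e-05, limma), which was 52.2% of the mean FPKM. In B-CKO it was -1.32 ± 0.07 (adjusted p = 1.7e-05, limma). From D1 to D2, *Cd22* rose in B-CKO (0.32 ± 0.05, adjusted p = 0.00161) and all 3 CON libraries were higher at D2 than at D1, but the CON change did not pass (0.16 ± 0.05, adjusted p = 0.0539). It passed with median ratio scaling (adjusted p = 0.0187), among genes of at least 1 FPKM (adjusted p = 0.0239) and without CON D1 replicate 1 (adjusted p = 0.0236).

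*Siglecg* encodes the second inhibitory Siglec of mouse B cells, known for its part in restraining B-1 cells. The gene spans chr7:43408192-43418349 (plus strand). It fell more than *Cd22* did. CON libraries held it at 277, 251 and 220 FPKM at D0, at 63.6, 61.0 and 60.2 at D1, and at 71.8, 81.0 and 83.3 at D2. In B-CKO the values were 272, 220.3 and 223 at D0, 53.2, 50.3 and 53.5 at D1, and 69.9, 75.2 and 69.4 at D2. The level at D1 was 75.3% below that at D0 in CON (log2 fold change -2.00 ± 0.09, adjusted p = 1.2e-05, limma) and 78.0% below it in B-CKO (-2.16 ± 0.09, adjusted p = 6.6e-06). A partial rise to D2 passed in CON (0.35 ± 0.06, adjusted p = 0.00313) and in B-CKO (0.44 ± 0.04, adjusted p = 0.000249). The ratio of *Cd22* to *Siglecg* FPKM was therefore 1.67 to 1.87 in the 3 CON libraries at D0, 3.15 to 3.47 at D1 and 2.79 to 3.10 at D2.

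*Cd72* encodes a C-type lectin-like receptor whose known ligand is semaphorin 4D. Its gene lies at chr4:43447724-43455102 (minus strand). Unlike the Siglecs, it was lowest at D2. The level in CON was 340.2, 362 and 239 FPKM at D0, at 214, 209 and 197 at D1, and at 119, 130.4 and 118 at D2. B-CKO libraries held it at 333, 302 and 266 at D0, at 183, 185 and 152 at D1, and at 113, 108 and 104 at D2. The groups of 1 genotype did not overlap between any 2 days. The fall passed from D0 to D1 (-0.58 ± 0.16 in CON, adjusted p = 0.01997, and -0.79 ± 0.11 in B-CKO, adjusted p = 0.00101) and again from D1 to D2 (-0.75 ± 0.05 in CON, adjusted p = 8.2e-05, and -0.67 ± 0.08 in B-CKO, adjusted p = 0.000561). The first fall in CON is the least firm of these, since it did not pass without any one of CON D0 replicates 1 and 2 or of the 3 CON D1 libraries (adjusted p = 0.0513 to 0.0679), with log2 values of -0.60 to -0.46.

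*Fcgr2b*, which encodes the Fc gamma receptor IIB, the inhibitory receptor for IgG immune complexes that mainly recruits SHIP-1, was the only one of the 8 genes that rose from D0 to D1. The locus is chr1:170960558-170976071 (minus strand). In CON it was at 90.5, 79.8 and 69.4 FPKM at D0, at 210.2, 186 and 209 at D1, and at 187, 173 and 193 at D2. The level in B-CKO was 88.0, 77.1 and 66.9 at D0, at 179, 181 and 196 at D1, and at 161, 176 and 198 at D2. Every LPS library lay above every D0 library. The rise from D0 to D1 was 2.52-fold in CON (log2 fold change 1.33 ± 0.11, adjusted p = 0.000104, limma) and 2.40-fold in B-CKO (1.26 ± 0.10, adjusted p = 8.9e-05). Between D1 and D2 the change did not pass in either genotype (-0.13 ± 0.06 in CON, adjusted p = 0.132, and -0.06 ± 0.08 in B-CKO, adjusted p = 0.601). In CON it passed as a fall with the replicate number as a block (adjusted p = 0.0349) and without CON D1 replicate 2 (-0.19, adjusted p = 0.0412). *Fcgr3*, its activating relative on myeloid cells with a similar extracellular part, was listed at 0 to 0.55 FPKM in all 18 libraries.

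**Figure D1:**
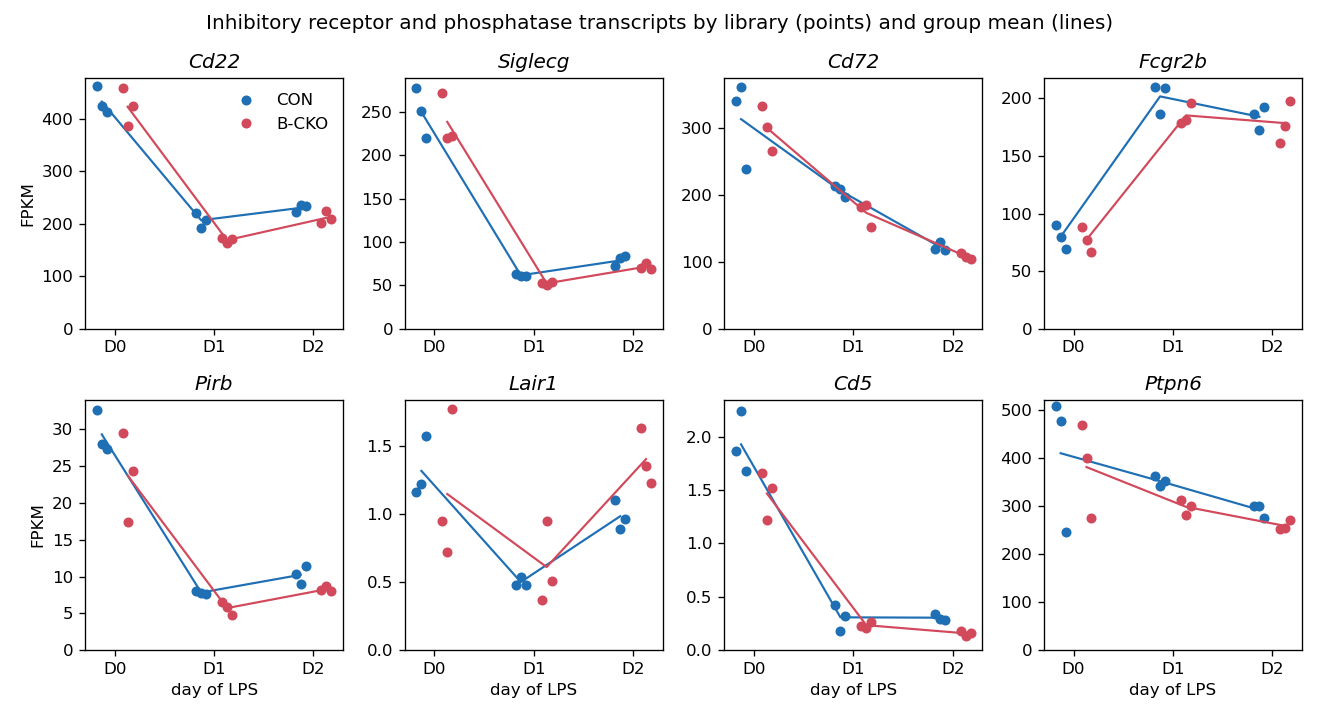
FPKM of each of the 8 genes (y axis, from 0) by day of LPS (x axis) in CON (blue) and B-CKO (red), with 1 point per library and lines through the means of 3 libraries. *Fcgr2b* climbs from 66.9 to 90.5 FPKM at D0 to above 161 in every LPS library, while *Cd22*, *Siglecg*, *Pirb* and *Cd5* drop by D1.

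The make-up of the receptor pool changed accordingly. The FPKM of the 7 receptors summed to 972 to 1205 in the CON libraries at D0, 657 to 717 at D1 and 612 to 640 at D2. The sums in B-CKO were 1006 to 1182, 577 to 595 and 556 to 593. *Fcgr2b* made up 6.96% to 7.51% of this sum in CON at D0, 28.4% to 30.6% at D1 and 27.5% to 30.5% at D2. In B-CKO its share was 6.65% to 7.67%, 30.1% to 33.9% and 29.0% to 33.5%. The ratio of *Cd22* to *Fcgr2b* went from 5.10 to 5.94 at D0 to 0.991 to 1.05 at D1 in CON. In the order of levels, the ranges of *Cd22*, *Ptpn6*, *Cd72* and *Siglecg* overlapped with those of their neighbours at D0 in both genotypes, and those of *Cd72*, *Cd22* and *Fcgr2b* did so at D1. At D2 no neighbours overlapped, and the order in both genotypes was *Ptpn6*, *Cd22*, *Fcgr2b*, *Cd72*, *Siglecg*, *Pirb*, *Lair1* and *Cd5*.

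**Figure D2:**
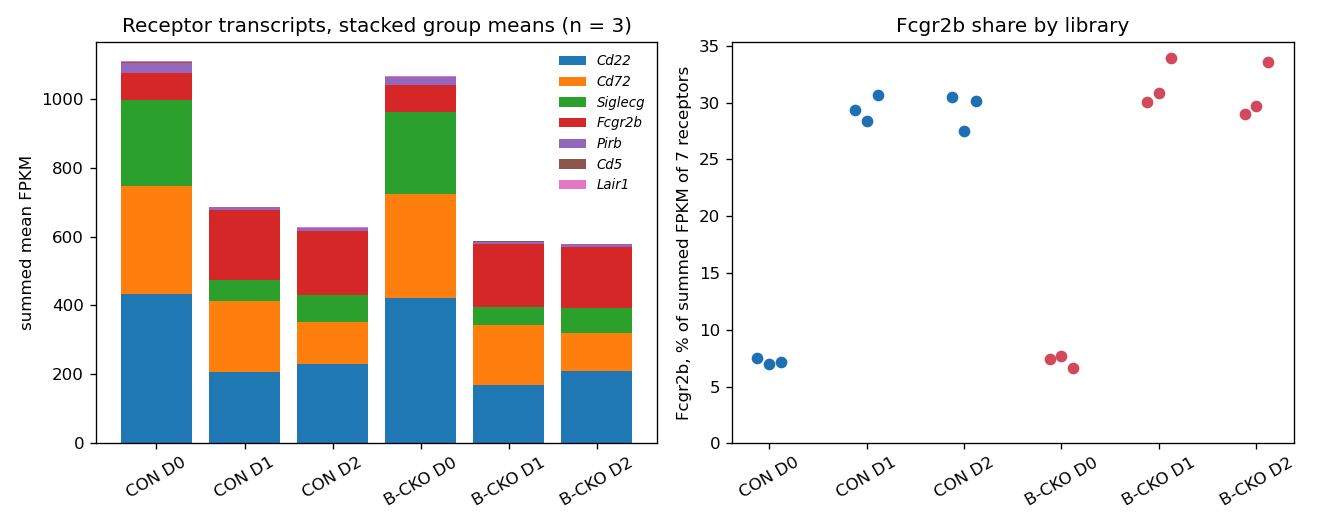
Left, mean FPKM of the 7 receptors stacked for each group of 3 libraries. Right, the share of *Fcgr2b* in the summed FPKM of the 7 receptors (%, 1 point per library, CON blue and B-CKO red), which is 6.65% to 7.67% in the D0 libraries and 27.5% to 33.9% in the LPS libraries.

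*Pirb* encodes the paired immunoglobulin-like receptor B, which binds MHC class I. The gene spans chr7:3712505-3720382 (minus strand). CON libraries held it at 32.7, 28.0 and 27.3 FPKM at D0, at 8.06, 7.82 and 7.60 at D1, and at 10.3, 8.99 and 11.4 at D2. In B-CKO it was at 29.5, 17.4 and 24.4 at D0, at 6.50, 5.86 and 4.76 at D1, and at 8.19, 8.65 and 7.97 at D2. It fell by 73.3% from D0 to D1 in CON (-1.78 ± 0.09, adjusted p = 1.6e-05, limma) and by 76.0% in B-CKO (-1.86 ± 0.20, adjusted p = 0.000285), and rose in part to D2 (0.34 ± 0.08 in CON, adjusted p = 0.0139, and 0.47 ± 0.10 in B-CKO, adjusted p = 0.00855). The CON rise did not pass without CON D1 replicate 3 (adjusted p = 0.0522) or in 1 fit of all 18 libraries (adjusted p = 0.107). *Pirb* lies among near-identical *Pira* genes, whose products are activating receptors, and reads may have been split between them, so its level is uncertain. *Pira2* was at 17.1, 10.5 and 9.25 FPKM in CON at D0 and 2.96, 2.18 and 2.76 at D1, which is 33.9% to 52.4% and 27.9% to 36.7% of *Pirb*.

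*Lair1* encodes a collagen receptor with 2 ITIMs, and its level was near 1 FPKM throughout. Its gene lies at chr7:4007073-4073567 (minus strand). The level in CON was 1.16, 1.22 and 1.57 FPKM at D0, at 0.48, 0.54 and 0.48 at D1, and at 1.10, 0.89 and 0.96 at D2. B-CKO libraries held it at 0.95, 0.72 and 1.77 at D0, at 0.37, 0.95 and 0.51 at D1, and at 1.63, 1.35 and 1.23 at D2. The B-CKO libraries thus spread widely at D0 and D1. In CON it fell to D1 (-0.62 ± 0.08, adjusted p = 0.000731) and rose to D2 (0.40 ± 0.05, adjusted p = 0.000861). In B-CKO the fall did not pass (-0.40 ± 0.21, adjusted p = 0.146) and the rise did (0.59 ± 0.14, adjusted p = 0.0106). With the spread estimated from all 18 libraries, the fall in B-CKO passed (adjusted p = 0.0337) and the rise in CON did not (adjusted p = 0.0647). Whether the changes differ between the genotypes was tested and did not pass (adjusted p = 1 for D0 to D1 and 0.858 for D1 to D2).

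Both *Pirb* and *Lair1* are also expressed by myeloid cells, whose markers were low and moved with the day. The 12 myeloid markers summed to 36.4 to 40.6 FPKM in CON at D0, 14.3 to 15.3 at D1 and 14.1 to 17.9 at D2, and *Tyrobp* held 23.5 to 25.7 of the D0 sum. In CON 5 of them fell from D0 to D1 and *Itgam* rose. The defining marker *Cd14* was at 0 to 0.15 FPKM and *Csf1r* at 0 to 0.84 FPKM in all libraries. By the methods of the study, splenic B cells were enriched with a kit and then sorted by flow cytometry. These steps are meant to remove cells of other types. The part of myeloid cells in the *Pirb* and *Lair1* values was not tested.

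*Cd5* encodes a scavenger-type receptor of T cells and B-1a cells that dampens antigen receptor signals. The locus is chr19:10718107-10739026 (minus strand). In CON it was at 1.86, 2.24 and 1.68 FPKM at D0, at 0.42, 0.18 and 0.32 at D1, and at 0.34, 0.29 and 0.28 at D2. The level in B-CKO was 1.66, 1.22 and 1.52 at D0, at 0.23, 0.21 and 0.26 at D1, and at 0.18, 0.13 and 0.16 at D2. Its mean level fell by 84.1% from D0 to D1 in both CON (-1.16 ± 0.10, adjusted p = 0.000152, limma) and B-CKO (-0.996 ± 0.08, adjusted p = 6.0e-05). All 11 T cell markers in the table fell in CON as well over these days. The summed FPKM of 6 of them that define T cells (*Cd3d*, *Cd3e*, *Cd3g*, *Cd4*, *Cd8a* and *Thy1*) was 5.31 to 9.91 in CON and 5.44 to 9.18 in B-CKO at D0, 0.91 to 1.57 at D1 and 0.45 to 0.77 at D2. *Cd3e* and *Cd4* were at 0 in some LPS libraries. The whole list summed to 216 to 224 FPKM in CON at D0 and 39.0 to 43.4 at D1, mostly *Cd2*, which B cells also express. Of 3 genes associated with B-1 cells, *Bhlhe41* averaged 15.8, 4.55 and 12.2 FPKM in CON at D0, D1 and D2, *Zbtb32* 6.01, 111 and 171, and *Spn* 7.08, 7.56 and 19.4. The part of T cells and of B-1 cells in the fall of *Cd5* was not tested.

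**Figure D3:**
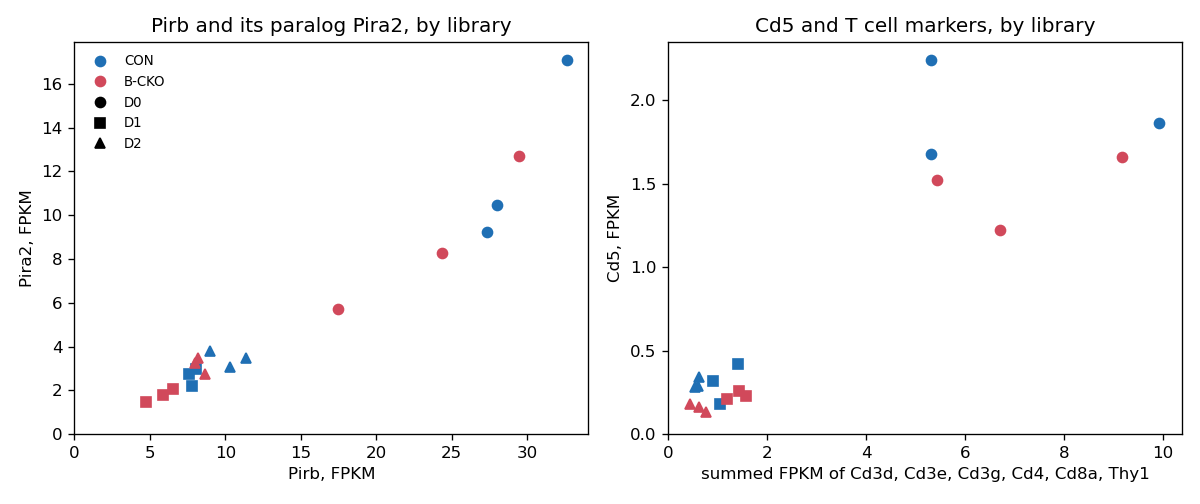
Left, FPKM of *Pira2* (y axis) against *Pirb* (x axis), and right, FPKM of *Cd5* (y axis) against the summed FPKM of 6 T cell markers (x axis), with 1 point per library (CON blue, B-CKO red; circles D0, squares D1, triangles D2). *Pira2* and *Pirb* are high in the same libraries, and *Cd5* is above 1.2 FPKM only in the D0 libraries, where the T cell sum is at least 5.31.

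*Ptpn6* encodes SHP-1, a phosphatase that phosphorylated ITIMs can bind. The gene spans chr6:124720707-124738709 (minus strand). CON libraries held it at 508, 476 and 245 FPKM at D0, at 362, 342 and 351 at D1, and at 300.3, 299.5 and 276 at D2. In B-CKO it was at 468, 399 and 276 at D0, at 312, 282 and 301 at D1, and at 251, 254 and 269.9 at D2. The libraries with the number 3 at D0 were by far the lowest of both genotypes, so that D0 overlapped with D1. The same CON and B-CKO libraries had the highest D0 sums of 5 NK cell markers (14.6 and 17.8 FPKM, against 6.27 to 10.5 in the others), mostly *Prf1*, while *Ncr1* was at 0.09 to 0.35 FPKM at D0. Their part in the *Ptpn6* values was not tested. The change from D0 to D1 did not pass (-0.15 ± 0.27 in CON, adjusted p = 0.664, and -0.32 ± 0.19 in B-CKO, adjusted p = 0.193). Without CON D0 replicate 3 it was -0.48 in CON (adjusted p = 0.000864), and without B-CKO D0 replicate 3 it was -0.53 in B-CKO (adjusted p = 0.00452). From D1 to D2 *Ptpn6* fell in CON (-0.27 ± 0.05, adjusted p = 0.00315) and in B-CKO (-0.21 ± 0.05, adjusted p = 0.0149), and the 2 days did not overlap. Neither call held when the spread was estimated from all 18 libraries (adjusted p = 0.445 and 0.576), which includes the wide D0 groups. The B-CKO call was also lost with median ratio scaling (adjusted p = 0.0506) and without B-CKO D1 replicate 1 or 3 or B-CKO D2 replicate 1 (adjusted p = 0.0538 to 0.0584).

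From D1 to D2 in CON, 3 of the 8 genes rose (*Siglecg*, *Pirb* and *Lair1*) and 2 fell (*Cd72* and *Ptpn6*), against 20.1% higher and 24.8% lower of 15178 genes. In B-CKO, 4 rose (the same 3 and *Cd22*) and 3 fell (*Cd72*, *Ptpn6* and *Cd5*), against 21.7% and 24% of 15253 genes. The *Cd5* call rests on levels under 0.3 FPKM (-0.09 ± 0.03, adjusted p = 0.0279) and was lost with a pseudocount of 0.1 (-0.38, adjusted p = 0.0739), in 1 fit of all 18 libraries (adjusted p = 0.444) and without B-CKO D1 replicate 1 or 3 or B-CKO D2 replicate 2 or 3 (adjusted p = 0.0620 to 0.0852). Across the full 48 h, *Fcgr2b* stayed higher than at D0 in both genotypes (1.20 ± 0.10 in CON and 1.20 ± 0.12 in B-CKO). Of the others, 5 were lower in CON and 6 in B-CKO, where *Ptpn6* was added with an adjusted p of 0.0496. The shares of all genes were 26.5% higher and 30.3% lower in CON, and 27% and 30.7% in B-CKO. *Lair1* at D2 was not called different from D0 in either genotype (adjusted p = 0.0826 and 0.418). In CON it was lower than at D0 when the values were rescaled to TPM (-0.43, adjusted p = 0.0316), and in B-CKO it was higher without B-CKO D0 replicate 3 (0.39, adjusted p = 0.0281). *Ptpn6* in CON, not called over 48 h (-0.42 ± 0.27, adjusted p = 0.241), was lower without CON D0 replicate 3 (-0.75, adjusted p = 0.000378). Its B-CKO call was lost without any one of the 5 libraries other than B-CKO D0 replicate 3 (adjusted p = 0.0986 to 0.139). That call was also lost with median ratio scaling (adjusted p = 0.0559), with the replicate number as a block (adjusted p = 0.0656) and in 1 fit of all 18 libraries (adjusted p = 0.0519).

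The comparison of genotypes asked whether loss of *Zbtb24* changed these genes at rest or under LPS. None of the 8 passed at D0, D1 or D2 in limma, where 0%, 0.0993% and 0.046% of all genes tested did. At an unadjusted p under 0.05, the 8 genes gave 0 at D0, 5 at D1 and 6 at D2, against 2%, 16.3% and 7.71% of all genes. No other tool was run, since the values are not counts. At D0 the values of *Cd22* spanned 412 to 462 FPKM in CON and 386 to 458 in B-CKO, and those of 7 of the 8 genes overlapped. The exception was *Cd5*, lower in every B-CKO library (1.22 to 1.66 against 1.68 to 2.24 FPKM), where 1.94% of all genes were lower and 1.92% higher without overlap. All 8 log2 fold changes at D0 were below 0 (median -0.07), where 51.3% of all genes were. Within same-numbered pairs at D0, *Cd5*, *Fcgr2b* and *Pirb* were lower in B-CKO each time, and the other genes went both ways.

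At D1, every B-CKO library lay below every CON library for *Cd22*, *Siglecg*, *Cd72*, *Pirb* and *Ptpn6*, 5 of the 8 genes, where 11.7% of 15104 genes lay lower and 8.43% higher without overlap. The B-CKO mean was 18.3% lower for *Cd22* (log2 fold change -0.29 ± 0.05, adjusted p = 0.0903), 15.1% for *Siglecg* (-0.23 ± 0.03, adjusted p = 0.0688), 16.0% for *Cd72* (-0.26 ± 0.08, adjusted p = 0.182), 27.1% for *Pirb* (-0.40 ± 0.10, adjusted p = 0.134) and 15.2% for *Ptpn6* (-0.24 ± 0.04, adjusted p = 0.0931, limma). *Fcgr2b* was at 179 to 196 FPKM against 186 to 210.2 and overlapped (-0.12 ± 0.06). The median of the 8 genes was -0.23, and that of all genes was -0.0046. When only the 9711 genes averaging 1 FPKM or more were tested, *Cd22*, *Siglecg*, *Pirb* and *Ptpn6* passed as lower in B-CKO (adjusted p = 0.0159 to 0.0341), where 3.05% of genes did. With the replicate number as a block in addition, *Cd72* passed too (adjusted p = 0.0184), where 5.11% did, an alternative chosen after seeing the data.

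At D2, *Cd72*, *Ptpn6*, *Pirb* and *Cd5* were lower in every B-CKO library and *Lair1* was higher in every one, where 6.24% of 15210 genes lay lower and 4.89% higher without overlap. *Cd72* was at 104 to 113 FPKM against 118 to 130.4 (-0.17 ± 0.05, adjusted p = 0.460), and *Ptpn6* at 251 to 269.9 against 276 to 300.3 (-0.17 ± 0.05, adjusted p = 0.450). *Lair1* was at 1.23 to 1.63 FPKM against 0.89 to 1.10 (0.28 ± 0.08, adjusted p = 0.445). *Cd22* and *Siglecg*, which had been apart at D1, overlapped again, at -0.12 ± 0.05 (adjusted p = 0.639) and -0.13 ± 0.06 (adjusted p = 0.694).

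The 95% confidence intervals, unadjusted, show how large a difference these libraries leave room for. At D1 they ran from -0.41 to -0.17 for *Cd22*, from -0.31 to -0.15 for *Siglecg*, from -0.64 to -0.17 for *Pirb* and from -0.26 to 0.02 for *Fcgr2b*. At D0 they ran from -0.27 to 0.20 for *Cd22* but from -0.86 to 0.73 for *Ptpn6*. With the replicate number as a block, which pairs these D0 libraries, the interval of *Ptpn6* was -0.33 to 0.19. Whether the change over time differed between genotypes was tested as well. None of the 8 genes passed, and 0% of all genes did from D0 to D1 and 0% from D1 to D2, where 2.89% and 7.31% of genes had an unadjusted p under 0.05. *Cd22* was the 1 member among them, with a larger fall from D0 to D1 in B-CKO by 0.25 ± 0.10 on the log2 scale (-0.25, unadjusted p = 0.0359, adjusted p = 1).

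**Figure D4:**
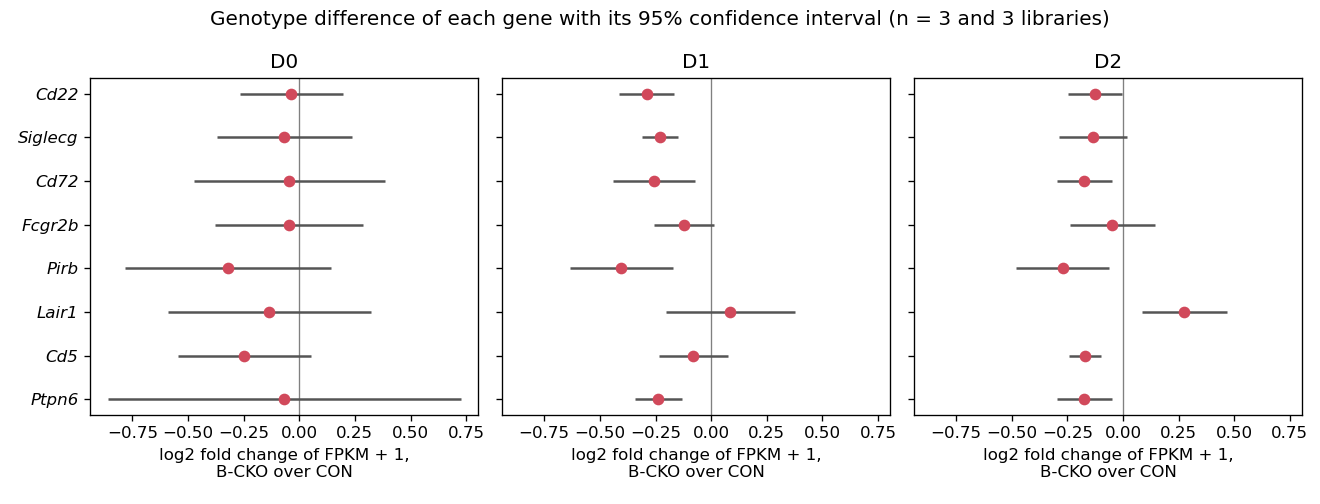
Log2 fold change of FPKM + 1 in B-CKO over CON (x axis) for each of the 8 genes (y axis) at D0, D1 and D2, as points with unadjusted 95% confidence intervals from 3 and 3 libraries. At D1, 5 intervals lie below 0 (*Cd22*, *Siglecg*, *Cd72*, *Pirb* and *Ptpn6*), and at D0 all 8 span 0.

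The rest of the pathway was described by 4 lists. Of 18 ITIM effectors (SHIP-1, Lyn, Csk, Dok adaptors and others), 12 fell and 2 rose from D0 to D1 in CON, with a median of -0.60, against 30.7% lower and 26.7% higher of all genes tested and their median of -0.02, which also stand beside the next 3 lists. The largest changes were in the adaptors *Dok3*, from 203 to 292 FPKM down to 24.7 to 29.0 (-3.14 ± 0.14), *Sla* (-2.44 ± 0.24) and *Pag1* (-1.05 ± 0.16). *Inpp5d* fell by 0.71 (-0.71 ± 0.07) and *Lyn* by 0.75 (-0.75 ± 0.05). Of 21 tested other inhibitory receptors, 14 fell and 4 rose, with a median of -0.65. *Fcrl5* rose from 18.1 to 22.55 FPKM at D0 to 53.7 to 58.9 at D1 (1.40 ± 0.10), so a rise was not particular to *Fcgr2b*. The others that rose were *Lag3* (1.34 ± 0.08), *Pdcd1* (1.11 ± 0.04) and *Tigit* (0.94 ± 0.10), at no more than 7.69 FPKM at D1. *Lilrb4a* (-2.34 ± 0.41), *Ctla4* (-1.90 ± 0.57) and *Clec12a* (-1.76 ± 0.23) changed most, all from at most 16.2 FPKM at D0.

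On the ligand side, 7 of 13 genes fell and 2 rose, with a median of -0.38. The lysosomal sialidase *Neu1* (-2.10 ± 0.13) and the MHC class I gene *H2-D1* (-1.18 ± 0.09) fell, and *Nans*, an enzyme of sialic acid synthesis, rose (1.34 ± 0.14). *St6gal1*, whose product makes the alpha2,6-linked sialic acid that CD22 binds, fell by 1.12 (-1.12 ± 0.13), and *Sema4d* by 1.14 (-1.14 ± 0.06). The BCR core of 20 genes had 14 lower and none higher, with a median of -0.56, led by *Blk* (-2.22 ± 0.07), the complement receptor *Cr2* (-2.01 ± 0.10) and *Malt1* (-1.87 ± 0.19). In the genotype comparison at D1, 16 of 18 effectors, 15 of 21 other receptors, 10 of 13 ligand-side genes and 19 of 20 BCR core genes had values below 0, with medians of -0.08, -0.06, -0.06 and -0.09, and 0, 0, 0 and 1 passed. Of all genes tested at D1, 52.6% had values below 0 and 0.0993% passed. *Sla* (-0.38 ± 0.07, adjusted p = 0.0931), *Dok3* (-0.38 ± 0.07, adjusted p = 0.0941) and *Inpp5d* (-0.18 ± 0.04, adjusted p = 0.104) did not.

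**Figure D5:**
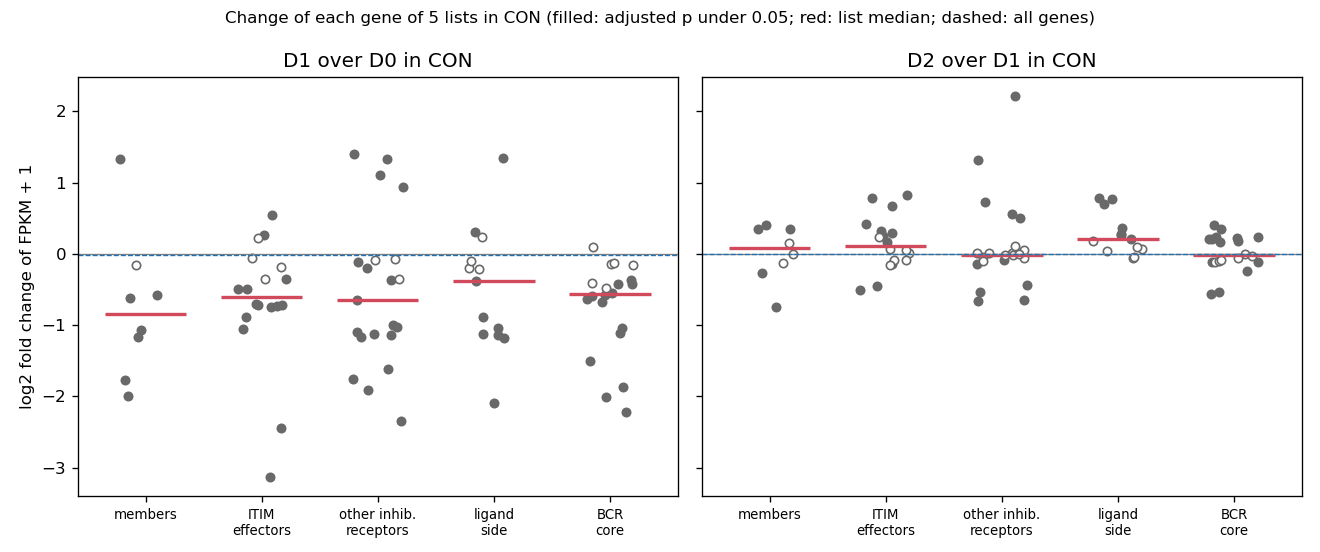
Log2 fold change of FPKM + 1 in CON (y axis) from D0 to D1 (left) and from D1 to D2 (right) for each gene of the 8 members and of 4 lists (x axis). Filled points passed an adjusted p of 0.05, and red lines are list medians (-0.84 for the members from D0 to D1). The dashed line is the median of all genes (-0.02 on the left and -0.0047 on the right).

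Over the 18 libraries, *Cd22*, *Siglecg*, *Pirb* and *Cd5* followed each other (Pearson r of log2(FPKM + 1) 0.947 to 0.993) and ran opposite to *Fcgr2b* (r -0.947 to -0.906). These correlations rest on 6 groups that share the fall from D0, and many genes share it. Outside the 8 genes, those most like *Siglecg* in the whole table were *Arhgap45* (r = 0.998) and the gut-homing integrin chain *Itgb7* (r = 0.996). *Arhgap45* averaged 368 FPKM in CON at D0 and 76.3 at D1. Those most like *Cd22* were *Slc44a2* and *Tmc6* (both r = 0.992), below its r with *Siglecg* (0.993). For *Pirb* they were *Unc13d* and *Flt3l* (both r = 0.986), and for *Cd72* *Parp3* and *Rap2c* (r = 0.984 and 0.982). *Fcgr2b* was most like *Rab5if* and *Tufm* (both r = 0.989), and *Ptpn6* most like *Was* and *Map11* (r = 0.934 and 0.928).

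The upstream sequences of *Fcgr2b*, the gene that rose from D0 to D1, and of *Siglecg*, the receptor of the abundant ones that fell most over these days, are given as the 250 bases before the RefSeq start site (GRCm38.p6, for *Siglecg* the more upstream of the 2 start sites given, which lies inside the gene span above, so that the last bases printed are part of that span), with matches in capitals. Letters searched on both strands, from 250 bases before to 50 after the start, were an NF-kappaB-like pattern (GGG, any 5 bases, CC), GAGGAA (a core bound by PU.1 and other ETS factors), ATGCAAAT (the octamer) and TGANTCA (AP-1). Of 32851 promoters of this length, 50.8%, 28.3%, 1.74% and 7.81% held them, in this order.
Fcgr2b, chr1:170976072-170976321, minus strand: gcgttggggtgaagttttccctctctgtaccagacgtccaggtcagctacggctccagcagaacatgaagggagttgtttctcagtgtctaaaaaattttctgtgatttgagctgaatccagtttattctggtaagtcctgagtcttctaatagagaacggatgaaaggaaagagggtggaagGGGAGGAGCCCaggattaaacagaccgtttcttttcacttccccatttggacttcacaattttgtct
Siglecg, chr7:43407989-43408238, plus strand: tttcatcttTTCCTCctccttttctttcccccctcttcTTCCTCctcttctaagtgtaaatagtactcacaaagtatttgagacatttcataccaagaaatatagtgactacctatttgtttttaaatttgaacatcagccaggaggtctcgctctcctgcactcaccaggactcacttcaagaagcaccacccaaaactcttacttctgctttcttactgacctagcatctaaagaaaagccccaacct
*Fcgr2b* held 2 overlapping matches of the NF-kappaB-like pattern, and *Siglecg* held 2 of GAGGAA, on the opposite strand. The promoter of the other *Siglecg* start site held no match of any of these patterns. GAGGAA was also present for *Cd72*, *Pirb*, *Lair1* and *Cd5* and the NF-kappaB-like pattern for *Cd72*, *Ptpn6*, *Pirb* and *Cd5*, and neither ATGCAAAT nor TGANTCA was found for any of the 8 genes. These are descriptions of letters and say nothing of which factors bind.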

How the data were processed

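RNA-seq of purified splenic B cells gave 18 libraries, 3 per genotype and day. Paired 150-base reads were mapped by the authors to mm10 with Bowtie2, abundance was estimated with Cufflinks and RSEM, and 1 FPKM table with 2 decimals was deposited (versions and annotation are not given in the sources used here). BWA and DESeq2 are also named in the submitters' processing notes. FPKM are not counts, so no count test was run. From the table, log2(FPKM + 1) was tested with limma 3.58.1 (R 4.3.3; lmFit, eBayes with trend) in the libraries compared, over genes above 0 FPKM in any of them, with Benjamini-Hochberg adjustment at 0.05. Of 16545 gene IDs, 16512 matched RefSeq symbols (GRCm38.p6). Members and lists were chosen with earlier results of these data known. Named genes are all members, up to 3 called list genes with the largest D0 to D1 change in CON, and list genes called between genotypes. The 2 genes outside the members that were most correlated with each member of at least 1 FPKM are also named. *Inpp5d*, *Lyn*, *St6gal1*, *Sema4d*, *Pira2*, *Fcrl5*, *Lag3*, *Pdcd1* and *Tigit* were added after their values were seen. A called gene of the BCR core list, which differed between genotypes at D1 and D2, is not reported here, and its part in the members' values was not tested. Same-numbered CON and B-CKO libraries deviated together at D0 (r 0.468 to 0.854) and same-numbered B-CKO libraries between D1 and D2 (0.117 to 0.183), so the numbers were taken to pair these, from the data only. Each replicate was 1 mouse by the methods of the study, which do not say whether a number marks the same mouse, litter or day across groups. The main tests, also those over time, treated the libraries as independent, and pairing entered only with the replicate block. Alternatives were a pseudocount of 0.1, a mean of at least 1 FPKM, TPM, median ratio scaling, the replicate block, 1 fit of all 18 libraries and leaving out each library. The fit was tested on simulated data. Other tools were Python 3.11.15, pandas 2.3.3 and matplotlib 3.10.9.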

Additional observations from a re-analysis of the deposited data

How the results depend on the processing

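Of 588 log2 fold changes of the 8 genes under other settings, 560 kept direction and side of the threshold, and of 624 without 1 library, 575 did. The number of members called between genotypes at D1 was 4 with a mean of at least 1 FPKM and 5 with the replicate block in addition, against 0. *Cd72* passed only once the block was added to the filter. From D1 to D2 in CON it was 2 in 1 fit of all 18 libraries, against 5. With the replicate block alone, *Fcgr2b* fell from D1 to D2 in CON (adjusted p = 0.0349) and the call of *Ptpn6* from D0 to D2 in B-CKO was lost (adjusted p = 0.0656); the block changed no other member's call. The 6 CON and B-CKO libraries at D1 each correlated best with their own number, a hint from the data. *Ptpn6* from D0 to D2 in B-CKO was lost without any library but B-CKO D0 replicate 3, at -0.56 to -0.36. Rescaled to TPM, *Cd5* from D1 to D2 in CON was -0.0123, and its sign is not determined. Leaving out 1 library turned the sign of values that had not passed. Between genotypes at D0 the ranges were -0.0946 to 0.0272 for *Cd22*, -0.228 to 0.0698 for *Cd72*, -0.144 to 0.0515 for *Fcgr2b*, -0.402 to 0.148 for *Ptpn6*, -0.166 to 0.0109 for *Siglecg* and -0.335 to 0.0089 for *Lair1*. They were -0.0603 to 0.194 for *Lair1* at D1 and -0.123 to 0.0226 for *Fcgr2b* at D2. Over time they were -0.484 to 0.041 for *Ptpn6* from D0 to D1 in CON, and from D1 to D2 -0.0713 to 0.0623 for *Cd5* in CON and -0.133 to 0.013 for *Fcgr2b* in B-CKO. For the genotype difference in the change from D0 to D1 they were -0.173 to 0.0222 for *Fcgr2b*, -0.385 to 0.164 for *Ptpn6* and -0.283 to 0.0796 for *Pirb*, and from D1 to D2 -0.0081 to 0.132 for *Cd72* and -0.0018 to 0.144 for *Fcgr2b*. Causes were not tested. FPKM hide the depth, so the number of reads behind *Cd5* and *Lair1*, near or below 1 FPKM, is unknown and may be small.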
